A study of Mus musculus with 6 samples.

Results

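Macrophages are the most numerous immune cells of the resting heart, and 34 genes that mark them or other myeloid cells were followed here in hearts that lack caveolin-1. The genes were listed by symbol, with no threshold on a measured value, but the list was drawn up with earlier results of these data known, so its counts are a description. A probe set (the group of short probes that together measure a transcript) was used where the platform annotation assigned it to exactly 1 of these symbols. All 34 genes had such a probe set, out of 18193 genes in all, and where a gene had several the brightest by mean over the 6 hearts was counted. Of the 34, 33 were bright enough to be tested, beside 11486 genes tested in all. The missing one was Itgam.

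The study set RNA from 3 Cav1KO hearts against RNA from 3 WT hearts on Affymetrix mouse expression arrays. Cav1 encodes caveolin-1, the coat protein of the small membrane pits called caveolae. Every sample came from a male mouse of 5 to 6 months after 6 hours without food. Strain, mutant allele and littermate status are not given in the sources used here. Nor does any label say outright that each sample is a separate animal, and a p-value here reflects the variation among these arrays alone, which may be technical.

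Macrophages of more than one origin live in the adult heart. Resident macrophages settle before birth, renew themselves in place and carry scavenger receptors such as the mannose receptor and CD163. Others come from blood monocytes, which enter through the chemokine receptor CCR2 and carry the integrin CD11b, lysozyme and CD14. Both depend on the growth factor receptor CSF1R and on the transcription factor PU.1, and both take up antibody-coated and dying cells through receptors that signal by the adaptors TYROBP and FcRγ.

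In Cav1KO hearts 12 of the 33 tested members, or 36.4%, rose and 0 fell, by limma with Benjamini-Hochberg adjustment over every tested probe set and a threshold of 0.05. At an unadjusted p below 0.05 the counts were 24 higher, or 72.7%, and 0 lower, against 11.1% and 11% of all genes. Over all genes at their brightest probe set 2.97% rose and 1.05% fell. The 12 were Ptprc, Coro1a, Laptm5, Cd52, Mpeg1, Irf8, Lcp1, Cd14, Fcgr2b, Tyrobp, Fcer1g and Mrc1, with differences from 0.75 down to 0.27 on the log2 scale, or 1.68-fold to 1.21-fold. Genes shared by all leukocytes had the highest median of the 6 roles, 0.49, and those of resident macrophages the lowest, 0.21. The roles too were drawn up with earlier results of these data known, and no difference between them was tested. The median of the 33 tested members was 0.29, against -0.014 over all tested genes, and 30 of the 33 stood above 0. In 24 of the 33, or 72.7%, every Cav1KO heart lay above every WT heart, against 13.4% of all tested genes. The count of calls depends on single hearts: 2 members were called without Cav1KO replicate 1, 3 without Cav1KO replicate 2, 6 without Cav1KO replicate 3 and 5 without WT replicate 3. In those settings the share of all genes called higher was lower too, at 0.948%, 1.11%, 2.28% and 1.38%.

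**Figure D1:**
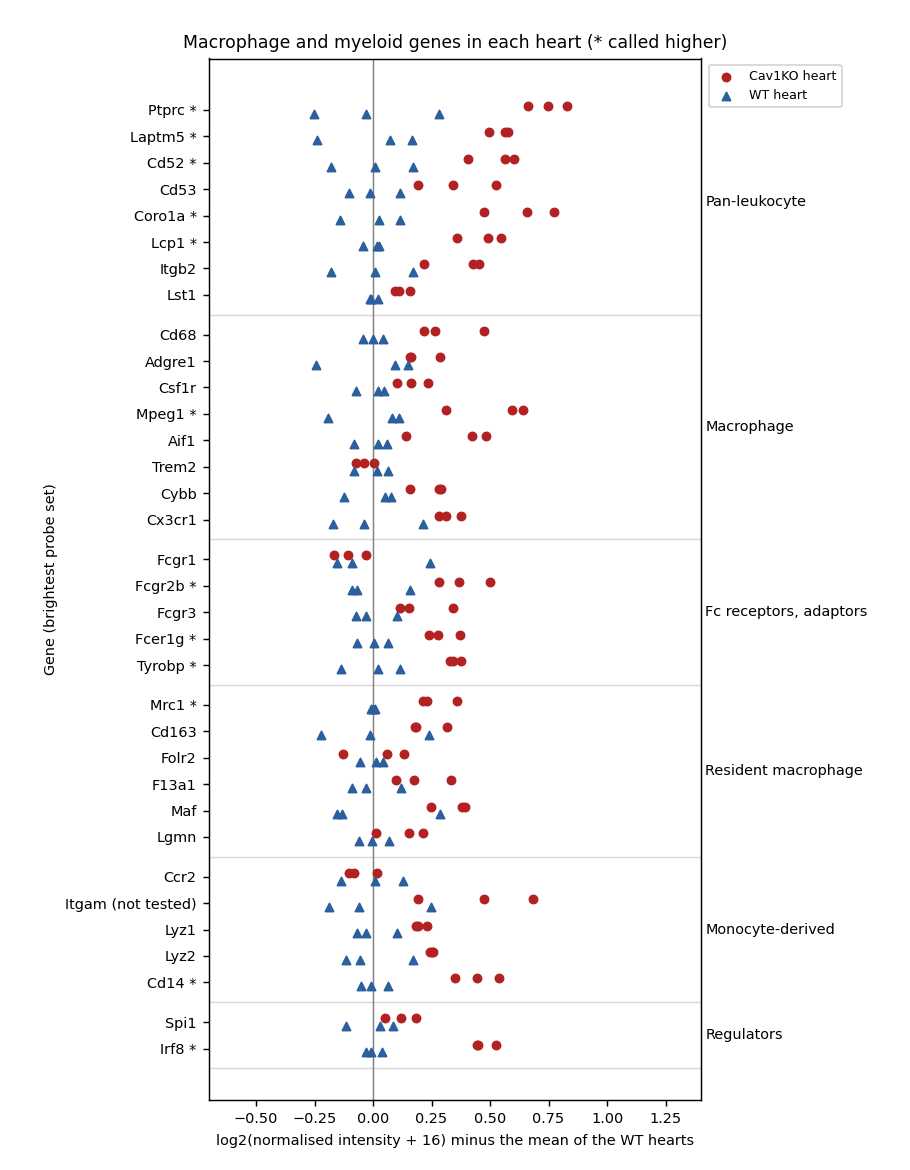
The 34 genes by role at their brightest probe set, each point 1 heart. The x axis is log2(normalised intensity + 16) minus the mean of the 3 WT hearts, with Cav1KO hearts as circles above WT hearts as triangles, and an asterisk marks the 12 genes called higher. All 8 pan-leukocyte genes have the Cav1KO hearts to the right of the WT hearts, while Trem2, Fcgr1, Folr2 and Ccr2 overlap around 0.

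Values are intensities after quantile normalisation, and each difference is Cav1KO minus WT after 16 was added and log2 taken. Dim genes therefore show less than their true fold. In whole tissue, more cells of a type and more RNA per cell cannot be told apart. As a check of the labels, Cav1 averaged 107 ± 9.85 in Cav1KO hearts and 3968 ± 215 in WT hearts (SD, n = 3 each). The tissue label was checked on 8 cardiomyocyte markers, whose summed intensity was 134792 to 136687 in Cav1KO hearts and 135215 to 137089 in WT hearts. Quantile normalisation gives the brightest probe sets of every array nearly the same values. The closeness of these sums is partly fixed by it and does not show equal cardiomyocyte content. Of the 34 members, 0 lie within 10 Mb of Cav1 on its chromosome.

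Ptprc encodes CD45, the phosphatase on the surface of all nucleated blood cells, and showed the largest difference of the members. Its intensity was 349.6, 329 and 309.8 in the Cav1KO hearts, against 185, 234 and 157 in the WT hearts. The groups do not overlap, and the difference was 0.75 (SE 0.12, adjusted p = 0.014) by limma. Coro1a, an actin-binding protein of leukocytes, stood at 268, 246 and 214 in the Cav1KO hearts, against 134, 164 and 153 in the WT hearts. It rose by 0.63 (SE 0.094, adjusted p = 0.00979), and its weaker probe set rose by 0.54 (SE 0.076, adjusted p = 0.00793). Lcp1, the leukocyte actin-bundling protein L-plastin, was at 392, 408 and 356 in the Cav1KO hearts, against 279.7, 278 and 266 in the WT hearts. The WT hearts lay close together and well below the Cav1KO hearts, a difference of 0.46 (SE 0.063, adjusted p = 0.00657). Its weaker probe set rose by 0.38 (SE 0.078, adjusted p = 0.039).

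Laptm5, a lysosomal membrane protein of blood cells, was at 383, 380.3 and 362 in the Cav1KO hearts, against 266, 285 and 211 in the WT hearts, a difference of 0.54 (SE 0.097, adjusted p = 0.0219). Cd52, a small glycoprotein anchored on lymphocytes and myeloid cells, was at 241, 215 and 249 in the Cav1KO hearts, against 180.4, 159 and 138 in the WT hearts, a difference of 0.52 (SE 0.095, adjusted p = 0.024). For both genes WT replicate 3 was the lowest heart. The other pan-leukocyte genes had no overlap between groups either, but did not pass. They were Itgb2, the β2 chain of leukocyte integrins, at 0.37 (SE 0.1, adjusted p = 0.0933), and Cd53, a leukocyte tetraspanin, at 0.35 (SE 0.092, adjusted p = 0.0822). Lst1, a small transmembrane protein of leukocytes encoded in the MHC region, had a difference of 0.12 (SE 0.059, adjusted p = 0.289). Of the 8 pan-leukocyte genes 5 thus rose, with a median of 0.49. Without Cav1KO replicate 1, or without Cav1KO replicate 2, only Lcp1 of these was called.

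Among genes expressed mainly by macrophages and their precursors, Mpeg1 alone passed of 8. It encodes perforin-2, a pore-forming protein that macrophages turn on engulfed bacteria, and its intensity was 275, 223 and 284 in the Cav1KO hearts, against 192, 188 and 153 in the WT hearts. The difference was 0.52 (SE 0.11, adjusted p = 0.0403). It did not pass without Cav1KO replicate 1, Cav1KO replicate 3 or any 1 of the WT hearts, and without WT replicate 1 Cx3cr1 was called instead. Csf1r, the receptor for the growth factor that keeps macrophages alive, was at 1607, 1677 and 1765 in the Cav1KO hearts, against 1521, 1548 and 1424 in the WT hearts. The groups were separate but close, with a difference of 0.17 (SE 0.050, adjusted p = 0.116), and its weaker probe sets stood at 0.13 and 0.086, neither called.

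Cd68, a lysosomal membrane protein long used to stain macrophages, was at 174, 211 and 180.4 in the Cav1KO hearts, against 142, 153 and 148 in the WT hearts. Its difference was 0.32 (SE 0.078, adjusted p = 0.067), short of the threshold. Adgre1, the F4/80 antigen, was at 201, 202 and 222 in the Cav1KO hearts, against 192, 200.5 and 149 in the WT hearts, and here 1 WT heart alone stood clearly lower. Its difference was 0.20 (SE 0.1, adjusted p = 0.303). Aif1, the calcium-binding protein IBA1, had a difference of 0.35 (SE 0.097, adjusted p = 0.0964). Cx3cr1, the fractalkine receptor of patrolling monocytes and of some resident macrophages, had one of 0.32 (SE 0.099, adjusted p = 0.123). Cybb, the catalytic subunit of the phagocyte NADPH oxidase, had 0.24 (SE 0.076, adjusted p = 0.131), and its weaker probe sets 0.21 and 0.26. In all of these the brightest probe set had no overlap between groups. Trem2, a lipid-sensing receptor that pairs with TYROBP, overlapped, at 65.2, 67.7 and 63.2 in the Cav1KO hearts, against 71.3, 62.8 and 68.5 in the WT hearts, with a difference of -0.036 (SE 0.069, adjusted p = 0.791).

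Both signalling adaptors of the activating receptors rose. Tyrobp, which carries an immunoreceptor tyrosine-based activation motif (ITAM) and serves TREM2 and related receptors, was at 371, 379 and 368 in the Cav1KO hearts, against 315, 294 and 261 in the WT hearts. Its difference was 0.35 (SE 0.070, adjusted p = 0.0353). Fcer1g, the γ chain shared by the activating antibody receptors, was at 296, 318 and 289 in the Cav1KO hearts, against 254, 243 and 230.5 in the WT hearts, with a difference of 0.29 (SE 0.062, adjusted p = 0.0415). The groups were separate for both adaptors, by a narrower gap than for Ptprc.

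Of the receptors for the constant part of antibodies, the inhibitory one, Fcgr2b, was called at its brightest probe set, at 329, 362 and 308 in the Cav1KO hearts, against 239, 282 and 235 in the WT hearts. The difference was 0.38 (SE 0.084, adjusted p = 0.0471). Fcgr2b is also made by B cells and by some endothelial cells. None of its other tested probe sets was called, with differences of -0.12, 0.24 and 0.10. Fcgr3, an activating receptor encoded beside it on chromosome 1, was at 338, 398 and 348 in the Cav1KO hearts, against 304, 334 and 295 in the WT hearts, a difference of 0.20 (SE 0.076, adjusted p = 0.186).

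Fcgr1, the high-affinity receptor CD64, gave results that depended on the probe set. The brightest, at 59.0, 55.2 and 52.3 in the Cav1KO hearts, against 74.6, 56.0 and 52.9 in the WT hearts, overlapped and had a difference of -0.10 (SE 0.11, adjusted p = 0.611), and WT replicate 1 was the highest heart. A weaker probe set was at 58.0, 64.9 and 56.7 in the Cav1KO hearts, against 32.1, 45.9 and 34.2 in the WT hearts. It did not overlap and rose by 0.51 (SE 0.1, adjusted p = 0.0338). Its WT mean, 37.4, lay below the lowest mean intensity tested, so it passed the filter only through the Cav1KO hearts. Of the 5 receptor and adaptor genes, 3 were called, and their median was 0.29. Without any 1 of the Cav1KO hearts, or without WT replicate 3, the count was 0. It was 2 without WT replicate 1 and 1 without WT replicate 2.

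Of 6 markers of resident macrophages Mrc1 rose, and it was the only one whose groups did not overlap. Their median was 0.21. Mrc1 encodes the mannose receptor, which clears sugar-coated proteins. It was at 451, 500.5 and 457 in the Cav1KO hearts, against 385, 387 and 389 in the WT hearts, and the WT hearts were almost identical. The difference was 0.27 (SE 0.055, adjusted p = 0.0389), the smallest of the called members, and it was not called without any 1 of the 6 hearts.

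Cd163, the scavenger receptor for haemoglobin, was at 248, 248 and 274 in the Cav1KO hearts, against 183, 259 and 214 in the WT hearts, where WT replicate 2 lay among the Cav1KO hearts. Its difference was 0.23 (SE 0.11, adjusted p = 0.278). Folr2, a folate receptor of resident macrophages, was at 248, 301 and 285 in the Cav1KO hearts, against 282, 262 and 275 in the WT hearts, and the lowest of all hearts was a Cav1KO heart. Its difference was 0.019 (SE 0.075, adjusted p = 0.903). F13a1, the A chain of clotting factor XIII, which monocytes make too, was at 1120, 1250 and 1059 in the Cav1KO hearts, against 969, 1077 and 928 in the WT hearts, a difference of 0.20 (SE 0.073, adjusted p = 0.179).

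Lgmn, the lysosomal protease legumain, was at 256, 297 and 285 in the Cav1KO hearts, against 243, 253 and 267 in the WT hearts, a difference of 0.13 (SE 0.069, adjusted p = 0.335). Maf, a transcription factor of resident macrophages that T cells and other cells also make, was at 347, 385 and 382 in the Cav1KO hearts, against 259, 357 and 263 in the WT hearts. WT replicate 2 again stood apart from the other WT hearts, and the difference was 0.34 (SE 0.11, adjusted p = 0.144). Without WT replicate 2 Maf was called, at 0.49. Its weaker probe sets stood between -0.084 and 0.15, and none was called.

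Of 5 genes linked to monocytes and the macrophages they give rise to, 4 were tested at the brightest probe set and Cd14 rose. Cd14, the co-receptor for bacterial lipopolysaccharide, was at 230.2, 247 and 214 in the Cav1KO hearts, against 173, 164 and 159 in the WT hearts. The difference was 0.44 (SE 0.069, adjusted p = 0.0123), and it was not called without Cav1KO replicate 1, Cav1KO replicate 2 or WT replicate 3. Itgam, the CD11b chain, was at 54.5, 45.1 and 34.2 in the Cav1KO hearts, against 22.5, 36.1 and 26.2 in the WT hearts, too dim to be tested, and WT replicate 2 overlapped the Cav1KO hearts.

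Ccr2, the receptor that brings monocytes out of the bone marrow and into tissue, was called at 2 weaker probe sets and not at its brightest. The brightest was at 92.1, 102 and 93.6 in the Cav1KO hearts, against 111, 89.7 and 101 in the WT hearts, a difference of -0.056 (SE 0.082, adjusted p = 0.721). The next was at 81.6, 68.5 and 93.0 in the Cav1KO hearts, against 41.3, 50.5 and 53.8 in the WT hearts, with no overlap and a rise of 0.59 (SE 0.11, adjusted p = 0.0265). The third was at 58.0, 56.3 and 65.5 in the Cav1KO hearts, against 33.4, 40.9 and 38.0 in the WT hearts, again with no overlap and a rise of 0.51 (SE 0.082, adjusted p = 0.014). The dimmest, at 31.3, 37.5 and 35.2 in the Cav1KO hearts, against 26.6, 32.0 and 27.3 in the WT hearts, was too dim to be tested. With all probe sets of a gene averaged, Ccr2 was called, at 0.31.

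Both lysozyme genes were separate between groups but short of the threshold. Lyz2, the lysozyme of macrophages and neutrophils, was at 2504, 2520 and 2514 in the Cav1KO hearts, against 2031, 2375 and 1948 in the WT hearts, a difference of 0.25 (SE 0.066, adjusted p = 0.0837). Lyz1, the lysozyme of Paneth cells in the gut, was at 4612, 4452 and 4486 in the Cav1KO hearts, against 3837, 4216 and 3735 in the WT hearts, a difference of 0.20 (SE 0.046, adjusted p = 0.0536). The pair are near-identical neighbours, and the bright probe sets named Lyz1 are of the type marked _x_at, which can bind related transcripts. The probe set named Lyz1 without that mark reached at most 16.7 in the Cav1KO hearts and 15.3 in the WT hearts, too dim to be tested. Without WT replicate 2 both lysozyme genes were called, at 0.25 for Lyz1 and 0.34 for Lyz2. The median of the 4 tested genes was 0.23. Whether monocyte-linked and resident markers differ from each other in their response was not tested.

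In the whole list 15 members had several probe sets, 65 in all, of which 53 were bright enough to be tested. Among these 53, 18 rose and 0 fell, or 34%, against 2.36% of all tested probe sets that rose. They belong to 14 members, the 12 above and Ccr2 and Fcgr1. The third Ccr2 probe set and the called Fcgr1 probe set each had a WT mean of 37.4, below the lowest mean intensity tested. Both passed the filter only through the Cav1KO hearts. For Laptm5 the probe sets disagreed: the brightest, of the _x_at type, rose, and the others stood at 0.15, 0.089 and -0.13. The last was lower in every Cav1KO heart than in every WT heart, at 43.6, 46.1 and 50.6 in the Cav1KO hearts, against 54.5, 53.0 and 51.1 in the WT hearts.

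**Figure D2:**
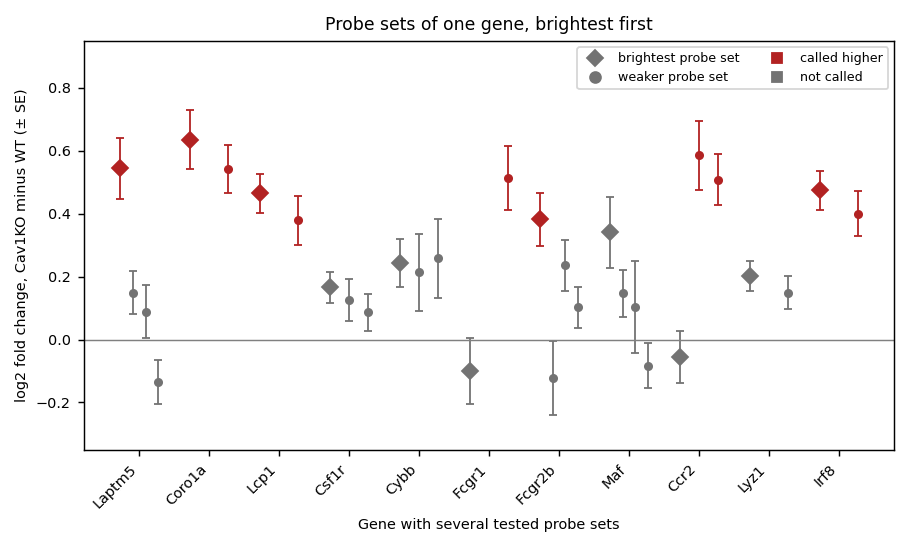
Members with more than 1 tested probe set, each point 1 probe set, brightest first as a diamond. The y axis is the log2 fold change, Cav1KO minus WT, with bars of 1 SE. Coro1a, Lcp1 and Irf8 were called at every tested probe set, Ccr2 and Fcgr1 at weaker ones, and Laptm5 and Fcgr2b at their brightest alone.

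The regulators were Spi1, which encodes PU.1, and Irf8, which encodes a factor that binds DNA together with PU.1 and directs monocyte and dendritic cell development. Irf8 was at 125, 118 and 117 in the Cav1KO hearts, against 81.2, 79.9 and 84.4 in the WT hearts. The groups lay far apart relative to their spread, and the difference was 0.47 (SE 0.063, adjusted p = 0.00619). Its weaker probe set rose by 0.40 (SE 0.072, adjusted p = 0.0227). Irf8 and Lcp1 were the only 2 members called in every alternative that tested their probe set. Spi1 was at 110.5, 105 and 116 in the Cav1KO hearts, against 91.4, 103 and 108 in the WT hearts, where WT replicate 3 overlapped the Cav1KO hearts, and its difference was 0.12 (SE 0.076, adjusted p = 0.4).

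Of the 34 members, 25 had a promoter in the RefSeq table of GRCm38.p6, which runs from 250 bases before to 50 after each start. The core letters GAGGAA that PU.1 can bind were searched on both strands, also with G or GT added, which are longer forms of the same match. The 6 letters were in 48.0% of these members and in 31.25% of all genes in the table, 7 letters (GAGGAAG) in 32.0% and 15.4%, and 8 letters (GAGGAAGT) in 8.0% and 3.69%. The composite GGAANNGAAA, to which PU.1 and IRF8 bind side by side, was in 16% of members and 3.16% of all genes. A match describes letters, not binding.

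Of the 12 called members 9 had a promoter in the table, and 4 of these held a match. The 6 letters were in 3 of the 9, or 33.3%, close to the 31.25% of all genes, and the composite in 1. Ptprc has a second promoter in the table, which holds no match and is not shown. Their promoters are shown with the matches in capitals, read 5′ to 3′ on the strand of the gene. Ptprc (chr1:138175256-138175555, minus strand) has GAGGAA 158 bases before the start. Laptm5 (chr4:130913066-130913365, plus strand) has it 38 bases before, on the opposite strand. Mrc1 (chr2:14229164-14229463, plus strand) has it 180, 167 and 35 bases before, on the opposite strand. Fcgr2b (chr1:170976022-170976321, minus strand) has the composite 35 bases before, on the opposite strand.
Ptprc: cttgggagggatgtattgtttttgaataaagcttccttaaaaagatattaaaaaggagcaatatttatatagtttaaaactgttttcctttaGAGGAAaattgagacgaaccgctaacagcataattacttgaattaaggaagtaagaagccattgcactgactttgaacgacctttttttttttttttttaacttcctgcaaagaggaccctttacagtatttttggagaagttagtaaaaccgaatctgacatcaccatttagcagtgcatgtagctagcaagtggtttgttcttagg
Laptm5: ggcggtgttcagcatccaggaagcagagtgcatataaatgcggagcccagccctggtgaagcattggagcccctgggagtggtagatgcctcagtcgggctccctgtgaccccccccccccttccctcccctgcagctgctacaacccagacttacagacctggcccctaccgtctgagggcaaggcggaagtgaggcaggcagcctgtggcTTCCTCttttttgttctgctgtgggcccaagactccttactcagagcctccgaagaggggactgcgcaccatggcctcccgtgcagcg
Mrc1: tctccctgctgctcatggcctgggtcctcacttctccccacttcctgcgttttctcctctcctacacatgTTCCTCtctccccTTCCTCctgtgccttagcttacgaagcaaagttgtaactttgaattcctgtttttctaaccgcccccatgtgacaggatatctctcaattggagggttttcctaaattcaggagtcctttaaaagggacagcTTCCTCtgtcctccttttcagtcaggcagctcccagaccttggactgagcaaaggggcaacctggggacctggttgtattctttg
Fcgr2b: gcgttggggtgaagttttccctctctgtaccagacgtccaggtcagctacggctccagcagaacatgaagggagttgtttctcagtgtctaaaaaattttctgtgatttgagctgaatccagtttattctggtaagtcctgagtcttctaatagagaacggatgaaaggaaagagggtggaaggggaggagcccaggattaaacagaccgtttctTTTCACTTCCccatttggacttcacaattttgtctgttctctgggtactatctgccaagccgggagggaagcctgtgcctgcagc

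Genes that work with the members showed a few rises and many differences that did not pass. Of 16 further resident macrophage genes tested, 3 rose and 0 fell, with a median of 0.079. They were Lyve1, a hyaluronan receptor that lymphatic endothelium also makes, at 1.04 (SE 0.16, adjusted p = 0.0131), Stab1, a scavenger receptor that some endothelial cells make too, at 0.32 (SE 0.055, adjusted p = 0.0201), and C1qa, a chain of complement C1q, at 0.31 (SE 0.059, adjusted p = 0.0278). The C1qb and C1qc chains had no overlap between groups and stood at 0.27 (SE 0.068, adjusted p = 0.0721) and 0.26 (SE 0.075, adjusted p = 0.106). Timd4, a receptor of self-renewing cardiac macrophages, was too dim to be tested. Lyve1 was at 596, 676 and 516 in the Cav1KO hearts, against 223, 373 and 265 in the WT hearts, with no overlap. None of the 3 was called without Cav1KO replicate 1, Cav1KO replicate 2 or WT replicate 3. C1qa was also lost without Cav1KO replicate 3 or WT replicate 1 and with eBayes without a trend. Of the 16, 11 stood above 0 and 5 below, none of these 5 called. The 5 were Siglec1 at -0.20, Cbr2 at -0.11, Cd209f at -0.10, Mertk at -0.093 and Vsig4 at -0.079. At an unadjusted limma p below 0.05, 6 of the 16 were higher and 1, Siglec1, lower. Of all genes, 11.1% were higher and 11% lower at that level.

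Of 5 further monocyte genes tested, S100a4, a calcium-binding protein that fibroblasts also make, rose by 0.79 (SE 0.074, adjusted p = 0.00133). It was at 328, 308 and 312 in the Cav1KO hearts, against 195, 174 and 159.6 in the WT hearts. Plac8, made by monocytes and other blood cells, had a difference of 0.33 (SE 0.13, adjusted p = 0.19). Among 7 genes of inflammatory or scar-associated macrophages Cd9, a tetraspanin of many cell types, rose by 0.76 (SE 0.073, adjusted p = 0.00143). The cytokine genes Il1b and Tnf stood at 0.17 (SE 0.095, adjusted p = 0.359) and -0.27 (SE 0.14, adjusted p = 0.296).

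Of 6 growth factors and recruiting chemokines tested with limma 0 were called, and at an unadjusted p below 0.05, the level that 11.1% of all genes passed upward and 11% downward, 2 were higher and 1 lower. Ccl8, a chemokine for monocytes, was at 128, 198 and 235 in the Cav1KO hearts, against 125, 88.1 and 83.8 in the WT hearts, a difference of 0.80 (SE 0.2, adjusted p = 0.0721). Ccl12, a ligand of CCR2, was at 107, 161 and 79.1 in the Cav1KO hearts, against 76.5, 63.2 and 68.0 in the WT hearts, a difference of 0.58 (SE 0.19, adjusted p = 0.14). In both the groups were separate and the Cav1KO hearts spread widely. Ccl2, the main ligand of CCR2, overlapped at 0.15 (SE 0.15, adjusted p = 0.59), and Csf1, the ligand of CSF1R, at 0.076 (SE 0.084, adjusted p = 0.629).

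Downstream of the adaptors, 1 of 10 genes of ITAM signalling rose: Hcls1, a leukocyte actin regulator, by 0.35 (SE 0.069, adjusted p = 0.0321). The kinase Syk, which docks on phosphorylated ITAMs, had -0.036 (SE 0.067, adjusted p = 0.786), and Sirpa, an inhibitory receptor of myeloid cells, 0.36 (SE 0.11, adjusted p = 0.109). Of 4 partners of CYBB in the oxidase, Ncf4 rose by 0.38 (SE 0.065, adjusted p = 0.018), and Ncf1, Rac2 and Cyba had 0.22, 0.20 and 0.038, none called. The WT mean of Hcls1, 47.6, was close to the lowest mean intensity tested. That of Ncf4, 43.9, lay below it, so Ncf4 passed the filter only through the Cav1KO hearts. Neither Hcls1 nor Ncf4 was called without any 1 of the Cav1KO hearts or without WT replicate 3, and Hcls1 was also lost with no filter on low values. Neither the 6 genes of lipopolysaccharide recognition, nor the 4 partners of β2 integrins, nor the 7 further myeloid transcription factors held a call by limma. At an unadjusted p below 0.05 these lists had 1, 3 and 0 genes higher, where 11.1% of all genes were. Their medians were 0.12, 0.24 and -0.074. The 3 were Itgal, Fermt3 and Icam1, at 0.26, 0.40 and 0.23, each with no overlap between groups.

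**Figure D3:**
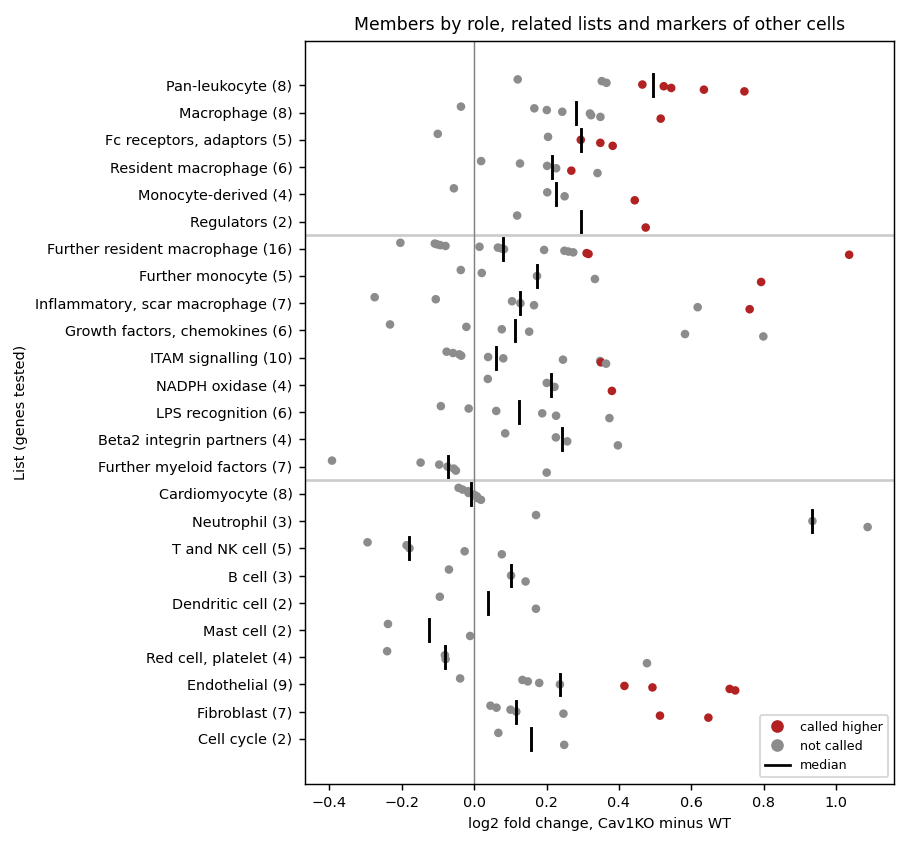
Log2 fold changes, Cav1KO minus WT, of the tested members by role (top block), of related lists (middle) and of markers of other cells (bottom), each point 1 gene at its brightest probe set and the bar the median. The pan-leukocyte genes have the highest median of the 6 roles, 0.49, and the roles were drawn up with earlier results of these data known. The cardiomyocyte markers lie around 0, which quantile normalisation can itself give for such bright genes.

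Several leukocyte genes among the members are also made by other blood cells, so their markers were read beside them. Of the lists in which limma called 0 genes, 1 T and NK cell marker was lower and 1 red cell or platelet marker higher at an unadjusted p below 0.05, and no neutrophil, B cell, dendritic cell or mast cell marker was. Of all genes, 11% were lower and 11.1% higher at that level. Of the neutrophil markers 11 of 13 had a probe set, 3 were bright enough to be tested and 0 were called, and their summed intensity ran from 435 to 1247 in Cav1KO hearts and from 444.5 to 678 in WT hearts. S100a8, a calcium-binding protein abundant in neutrophils, was at 269, 491 and 85.3 in the Cav1KO hearts, against 77.6, 121 and 148 in the WT hearts, and its partner S100a9 at 310.2, 458 and 79.8 in the Cav1KO hearts, against 80.1, 90.6 and 135 in the WT hearts. Cav1KO replicates 1 and 2 were high for both, and Cav1KO replicate 3 was as low as WT replicate 1. The granule genes Ngp and Lcn2 were too dim to be tested and differed in direction. Of the other untested neutrophil genes, Ltf, Camp, Mpo and Elane had Cav1KO means of 0.54, 0.75, 0.76 and 0.79 of the WT mean. For Mmp8 and Cxcr2 it was 1.08 and 1.02, and the groups of each of these other genes overlapped. Ngp was at 29.8, 29.7 and 36.8 in the Cav1KO hearts, against 42.8, 36.3 and 90.6 in the WT hearts. Its groups overlapped, and WT replicate 3 was the highest. Lcn2 was higher in every Cav1KO heart, at 52.2, 62.65 and 40.7, against 33.4, 38.4 and 30.3 in the WT hearts. Their part in the differences of the pan-leukocyte genes was not tested.

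For T and NK cells 13 of 15 markers had a probe set, 5 were tested and 0 were called, with sums of 645 to 706 in Cav1KO hearts and 690 to 842 in WT hearts. The T cell receptor chain Cd3e was at 67.0, 64.2 and 71.7 in the Cav1KO hearts, against 89.0, 70.0 and 77.8 in the WT hearts. For B cells 6 of 7 had a probe set, 3 were tested and 0 called, with sums of 234 to 323 in Cav1KO hearts and 242 to 287 in WT hearts, and Cd79a, a chain of the B cell receptor, was at 61.7, 41.2 and 47.7 in the Cav1KO hearts, against 50.1, 44.3 and 41.5 in the WT hearts. Dendritic cell markers (6 of 7 with a probe set, 2 tested, 0 called) summed to 259 to 284 in Cav1KO hearts and 253 to 268 in WT hearts, and Flt3, a growth factor receptor of their precursors, was at 74.1, 74.9 and 85.8 in the Cav1KO hearts, against 83.7, 76.2 and 94.6 in the WT hearts. Mast cell markers (6 with a probe set, 2 tested, 0 called) summed to 183 to 258 in Cav1KO hearts and 210.2 to 252 in WT hearts, and Cpa3, a mast cell protease, was at 29.8, 32.6 and 52.6 in the Cav1KO hearts, against 38.6, 32.2 and 39.3 in the WT hearts. Red cell and platelet markers (5 of 8 with a probe set, 4 tested, 0 called) summed to 1168 to 1511 in Cav1KO hearts and 1258 to 1694 in WT hearts.

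Of 9 endothelial markers 4 rose (Pecam1, Cldn5, Tek and Tie1), where 2.97% of all genes did. The 9 summed to 5600 to 6376 in Cav1KO hearts and 4557 to 4841 in WT hearts. Egfl7, Emcn, Eng, Cdh5 and Kdr were not called, at 0.24, 0.18, 0.15, 0.13 and -0.039, and the groups of Eng, Cdh5 and Kdr overlapped. Cldn5 was not called without Cav1KO replicate 2 or any 1 of the WT hearts, nor with no filter on low values, averaged probe sets or eBayes without a trend. Of 7 fibroblast markers 2 rose (Col1a1 and Col3a1), with sums of 13895 to 16979 in Cav1KO hearts and 11999 to 13553 in WT hearts. Much of the gap between the sums came from Col3a1, at a mean of 3051 in Cav1KO hearts and 1933 in WT hearts. The other 5 were not called. Lum stood at 0.25, and Pdgfra, Dcn, Dpt and Tcf21, whose groups overlapped, at 0.12, 0.10, 0.062 and 0.045. Col3a1 was not called without Cav1KO replicate 1 or WT replicate 3. Pecam1, which leukocytes and platelets carry too, was at 1049, 976 and 899.7 in the Cav1KO hearts, against 604, 568 and 600.0 in the WT hearts. Of 5 cell cycle genes with a probe set 2 were tested and limma called 0. At an unadjusted p below 0.05, where 11.1% of all genes were higher, 1 was higher. What these cells contribute to Fcgr2b, Cd14, Lyve1 and Stab1 was not tested.

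The hearts of a group were not alike. Of the 33 tested members 20 were lowest in WT replicate 3, 7 in WT replicate 1 and 4 in WT replicate 2, and 15 were highest in Cav1KO replicate 2, 8 in Cav1KO replicate 1 and 7 in Cav1KO replicate 3. In WT replicate 1 another 3 were highest, Trem2, Fcgr1 and Ccr2. The mean deviation of the members from the 6-heart mean was 0.14, 0.17 and 0.12 on the log2 scale in the Cav1KO hearts, against -0.12, -0.086 and -0.22 in the WT hearts. For the pan-leukocyte genes it was 0.31, 0.24 and 0.15 in the Cav1KO hearts, against -0.20, -0.15 and -0.36 in the WT hearts. The resident markers lay at 0.019, 0.17 and 0.11 in the Cav1KO hearts, against -0.17, -0.0010 and -0.12 in the WT hearts, so that Cav1KO replicate 1 and WT replicate 2 were close to each other.

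**Figure D4:**
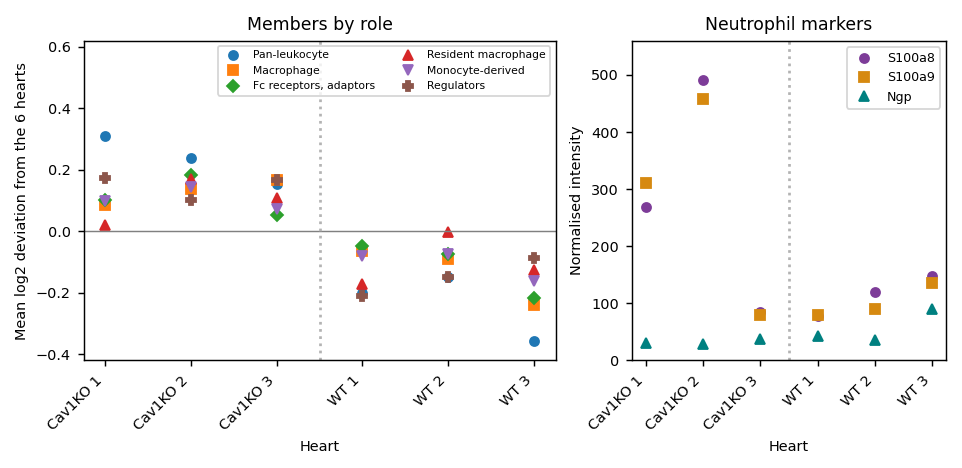
Left, the mean log2 deviation of each role's tested genes from the mean of the 6 hearts. Right, normalised intensity of 3 neutrophil markers. Points are hearts, Cav1KO left of the dotted line and WT right of it. The pan-leukocyte genes run from 0.31 in Cav1KO replicate 1 to -0.36 in WT replicate 3, and S100a8 and S100a9 are high in Cav1KO replicates 1 and 2 alone.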

How the data were processed

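RNA of 6 heart samples was measured, 1 array each, and each sample is called a heart here. Per the labels' protocols, RNA was extracted with Trizol and labelled with the One-Cycle kit. The submitters' processing notes list GCOS 1.4 and do not say what it was used for. The authors deposited 1 intensity on a linear scale per probe set and array (45101 probe sets). Their background correction, summary and scaling are not given in the sources used here. Summed intensity per array ran from 11736722 to 12397257, and the number of arrays limits the precision.

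After 64 control probe sets were left out, the intensities were quantile normalised and log2(intensity + 16) was taken. The 22519 probe sets in the upper 50% by mean were tested, down to a mean of 5.92 on that scale. Cav1KO minus WT came from lmFit and trended eBayes (limma 3.58.1, R 4.3.3), with Benjamini-Hochberg adjustment over all of them and a threshold of 0.05. The fit was tested on simulated data. Of the other probe sets 34945 had 1 symbol in the platform annotation, 932 several and 9160 none. The text names every member, genes called in the related lists, up to 4 of smallest p in lists with no call, and fixed defining markers. Members, their division into roles and the lists were chosen with earlier results of these data known. Uncalled genes of lists that hold a call, the untested neutrophil genes, and Csf1, Ccr1 and Timd4, were named after their values were seen. Alternatives were other scalings, pseudocounts, filters, probe set rules, spread estimates, array weights and leaving out each heart.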

Additional observations from a re-analysis of the deposited data

How the results depend on the processing

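No member was called lower under any of the 16 alternatives, and the median of the tested members lay between 0.24 and 0.36 on the log2 scale. Of the main 12, 7 members were called higher with no filter on low values and 7 with eBayes without a trend; Fcer1g, Fcgr2b, Mpeg1, Mrc1 and Tyrobp were the ones lost in both. With array weights 17 were called, adding Cd53, Cx3cr1, Itgb2, Lyz1 and Lyz2, with the lowest weight, 0.399, on WT replicate 1. Leaving out 1 heart at a time gave 2 to 11 members called and medians of 0.26 to 0.34. With the intensities as deposited 11 were called, and centred on the median 10. The share of all genes called higher moved as well, from 2.97% in the main setting. It was 1.46% with no filter, 1.84% without a trend and 4.24% with array weights. As deposited it was 3.27%, centred 3.29%, and with 1 heart left out 0.948% to 2.71%. The median of the tested members was 0.36 when centred on the median, where that of all tested probe sets was 0.051, and 0.24 where a gene's probe sets were averaged.

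Over all tested probe sets, 531 higher and 183 lower became 577 and 58 as deposited, 585 and 41 when centred, 777 and 394 with array weights, 420 and 103 with no filter, 338 and 73 without a trend, and 154 and 35 without Cav1KO replicate 1. Ccr2 changed sign to 0.0044 when centred, 0.0078 without WT replicate 1 and 0.31 with its probe sets averaged, and leaving out 1 heart gave -0.12 to 0.0078. Fcgr1 changed sign to 0.021 without WT replicate 1 and 0.21 with its probe sets averaged, and leaving out 1 heart gave -0.18 to 0.021. Folr2 changed sign to -0.037 without Cav1KO replicate 2 and -0.0079 without WT replicate 2, and leaving out 1 heart gave -0.037 to 0.094. The cause of these moves was not tested. The most fragile call was Fcgr2b, lost in 11 of 16 alternatives. No paired analysis was made, because no label links a Cav1KO sample to a WT sample. The Cav1KO labels carry no replicate numbers, so those used here follow the order in which the samples are listed.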

Other observations

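Lgals3, which encodes galectin-3 of macrophages and other cells, was at 264, 264 and 268 in the Cav1KO hearts, against 161, 109 and 264 in the WT hearts. WT replicate 3 lay at the level of the Cav1KO hearts, unlike for most members, and the difference of 0.62 had a limma adjusted p of 0.187.

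Ccr1, a chemokine receptor of monocytes and neutrophils, was too dim to be tested, at 44.9, 53.2 and 36.4 in the Cav1KO hearts, against 18.7, 23.1 and 25.4 in the WT hearts, with no overlap. Ccl24, a chemokine for eosinophils, had groups that did not overlap in the other direction, at 73.9, 74.5 and 86.1 in the Cav1KO hearts, against 103, 89.2 and 91.3 in the WT hearts (log2 difference -0.23, limma adjusted p = 0.164). Siglec1, a sialic acid receptor of macrophages, had a difference of -0.20 (limma adjusted p = 0.245).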
